A study of Mus musculus with 6 samples.

Results

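Leukaemia inhibitory factor (LIF) and its receptor, the kinases behind the receptor, the transcription factor Stat3 and feedback or target genes of Stat3 were followed in mouse embryonic stem (ES) cells that had been without LIF for 3 days. The 9 genes were taken by symbol, with current names set through the Entrez identifier: Lif, Lifr, Il6st, Jak1, Jak2, Stat3, Socs3, Pim1 and Pim3. They had 24 of the 45281 probes of the array, and 8 of the 9 had a probe bright enough to be among the 10072 genes measured. The cells came from a line whose Atad2 gene carries a knocked-in affinity tag, and both groups received a lentiviral short hairpin RNA (shRNA) with puromycin selection. In the shAtad2 group the hairpin was directed against Atad2, a bromodomain AAA ATPase of acetylated chromatin, and in the shCtrl group it was a control, called non-targeting in the labels and an inactive hairpin elsewhere in the study's text. Resistant cells were kept as stable pools, and each group held 3 arrays. The question put to the arrays was which of these genes were still read without LIF, and whether their levels differed after Atad2 knockdown.

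LIF signals through a pair of receptor chains, its own receptor Lifr and the shared chain gp130, which Il6st encodes. Ligand binding brings the Janus kinases Jak1 and Jak2 into action, and they phosphorylate Stat3, which then enters the nucleus and activates its targets. In mouse ES cells this pathway holds off differentiation, and its targets include naive pluripotency factors as well as Socs3, the inhibitor that closes the feedback loop. Activation is a matter of phosphorylation, which an array of transcripts does not read, and in bulk RNA fewer cells of a type and less RNA per cell cannot be told apart.

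Levels are normalized log2 intensity, and each mean stands with its SD (n = 3). A change is the shAtad2 mean minus the shCtrl mean on that scale, with the standard error (SE) of the fit. A probe counts as above background on an array when its detection p-value, a rank among negative control beads, is under 0.05. The arrays had 39.3% to 40.9% of their probes above background. The targeted gene Atad2 read 5.68, 5.64 and 5.41 in shAtad2, against 6.28, 6.47 and 6.39 in shCtrl, a change of -0.80 (SE 0.14) with an adjusted p of 0.311 by limma. The Atad2 change was -0.27 without background correction, -0.29 in the authors' processed values and -0.52 with an offset of 50. All 10 pluripotency markers examined, Pou5f1, Sox2 and Nanog among them, were above background on all 6 arrays. Of 8 fibroblast markers, examined because feeder cells make LIF, Col1a1, Col1a2, Col3a1, Lum and Postn were above background on none, while Thy1 and Dcn were measured. Their mean level was 6.83 to 7.68 in shAtad2 and 6.34 to 7.25 in shCtrl, and its part in the results was not tested. The study's methods describe ES cell culture on gelatin-coated dishes, and name feeder cells for the gene targeting step. Replicate 3 of each group lay away from the rest, at 26.1 and 26.8 on the first principal component against -15.4 to -11.9 for the other arrays. Values are also given per replicate number, as pairs. The deviations of same-numbered arrays from their group means correlated at 0.30, 0.29 and 0.58, but those of shAtad2 1 with shCtrl 2 and of shAtad2 2 with shCtrl 1 did so as closely, at 0.30 and 0.34. Only replicate 3 was thus set apart by its number, and no label ties a replicate to a culture of its own. The p-values therefore rest on the spread between these arrays, which may be technical.

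Transcripts of the ligand itself were not told apart from background in either group. Lif had 5 probes, which gave 30 readings over the 6 arrays, and 2 of these readings were above background, 1 in shAtad2 and 1 in shCtrl. The unnormalized intensity of the 5 probes lay between 112 and 144, and their normalized levels lay between 4.33 and 5.15. These Lif values have no order that the arrays can resolve, and no change is given. Other cytokines that use gp130 were in a like position. Of 8 listed, 7 had a probe and 1 was measured, Ctf1, which encodes cardiotrophin 1. Ctf1 averaged 6.75 ± 0.03 in shAtad2 and 6.72 ± 0.18 in shCtrl, and the difference was 0.03 (SE 0.14). The probes of Il6, Il11, Il27, Osm, Cntf and Clcf1 did not reach the detection rule.

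**Figure D1:**
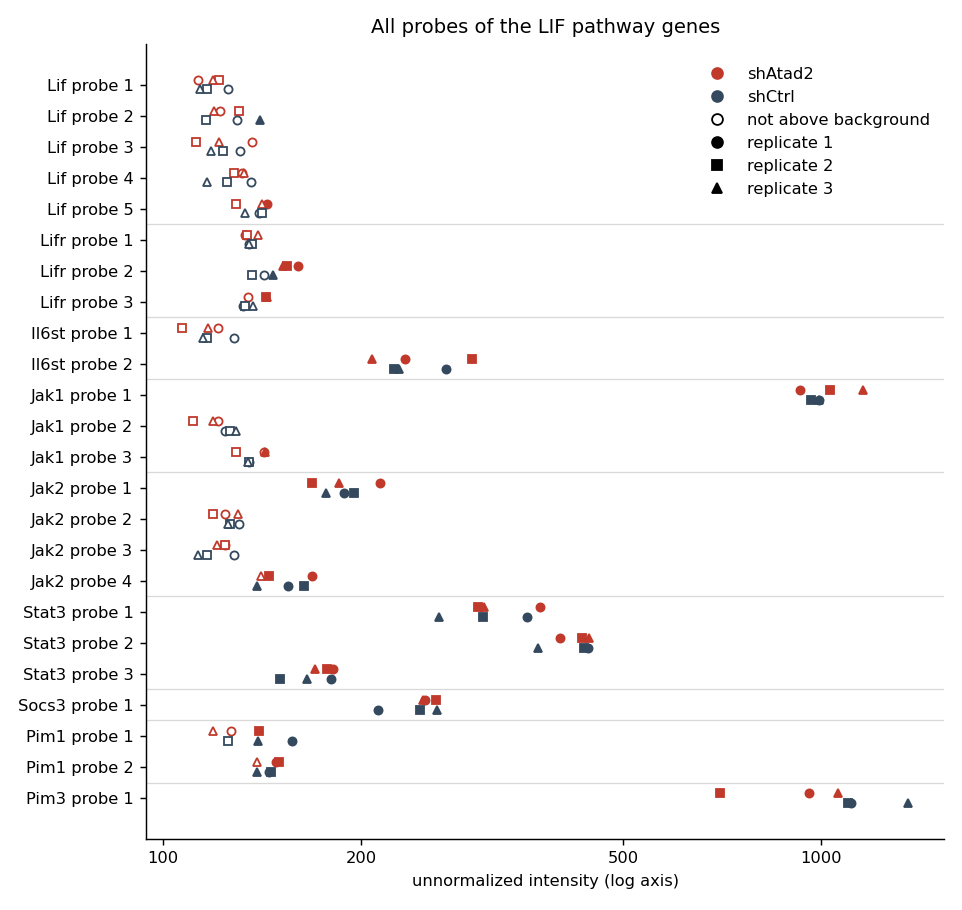
Unnormalized intensity of the 24 probes of the 9 genes on each array (log axis), with shAtad2 in red above shCtrl in dark blue and open symbols where the probe was not above background. The 5 Lif probes stay between 112 and 144, while the probes standing for Jak1 and Pim3 reach 1156 and 1355.

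Lifr, the LIF-specific receptor chain, was dim, and it was the gene of the pathway with the largest positive change. Its brightest probe read 5.64, 5.59 and 5.39 in shAtad2, against 4.87, 4.82 and 5.38 in shCtrl. It was above background on all 3 shAtad2 arrays but only on the third shCtrl array, so the control level is in part background. The probe met the detection rule through the shAtad2 arrays alone, so its separation between the groups is in part a product of that rule, and its p and interval are descriptions. The groups did not overlap, by a margin of 0.00 between the third replicates. The pairs differed by 0.76, 0.77 and 0.00, which places the whole difference in the pairs of replicates 1 and 2. The mean was 5.54 ± 0.13 in shAtad2 and 5.03 ± 0.31 in shCtrl, and the difference was 0.51 (SE 0.18, 95% interval 0.09 to 0.94). By limma the unadjusted p was 0.0242 and the adjusted p 0.539. Without replicate 3 of each group the Lifr change was 0.77 (adjusted p = 0.110 by limma), and it was 0.13 without background correction, 0.16 in the authors' processed values and 0.27 with an offset of 50. The other Lifr probes were weaker still. A second Lifr probe was above background on 2 shAtad2 arrays and 0 shCtrl arrays and differed by 0.27, and the remaining probe, above background on 0 arrays, differed by 0.04.

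Il6st, the gene of the gp130 chain, was above background on all 6 arrays. It read 6.94, 7.64 and 6.54 in shAtad2, against 7.19, 6.86 and 7.00 in shCtrl. The shAtad2 arrays held both the highest and the lowest Il6st reading, and the shCtrl arrays lay within them. The pairs differed by -0.25, 0.77 and -0.46, without a common sign. The mean was 7.04 ± 0.55 in shAtad2 and 7.02 ± 0.16 in shCtrl, and the difference was 0.02 (SE 0.27, 95% interval -0.60 to 0.64, adjusted p = 0.995 by limma). Il6st spanned 1.10 over the 6 arrays, the widest range among the pathway genes above background on all of them. The 5 genes whose levels ran most closely with Il6st over the 6 arrays were Pitpnc1 (Pearson r = 0.991), Tle3 (0.977), Flvcr2 (0.975), Vrk2 (0.973) and Scaf1 (0.972), out of 10071 genes compared on the same 6 arrays. All 5 were highest on shAtad2 2 and lowest on shAtad2 3, as Il6st was, and these correlations describe 6 points only. Osmr, the oncostatin M receptor that also pairs with gp130, was the 1 measured gene of the 5 other receptors listed. Osmr averaged 5.27 ± 0.28 in shAtad2 and 5.44 ± 0.25 in shCtrl, and was above background on 2 shAtad2 arrays and 3 shCtrl arrays.

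**Figure D2:**
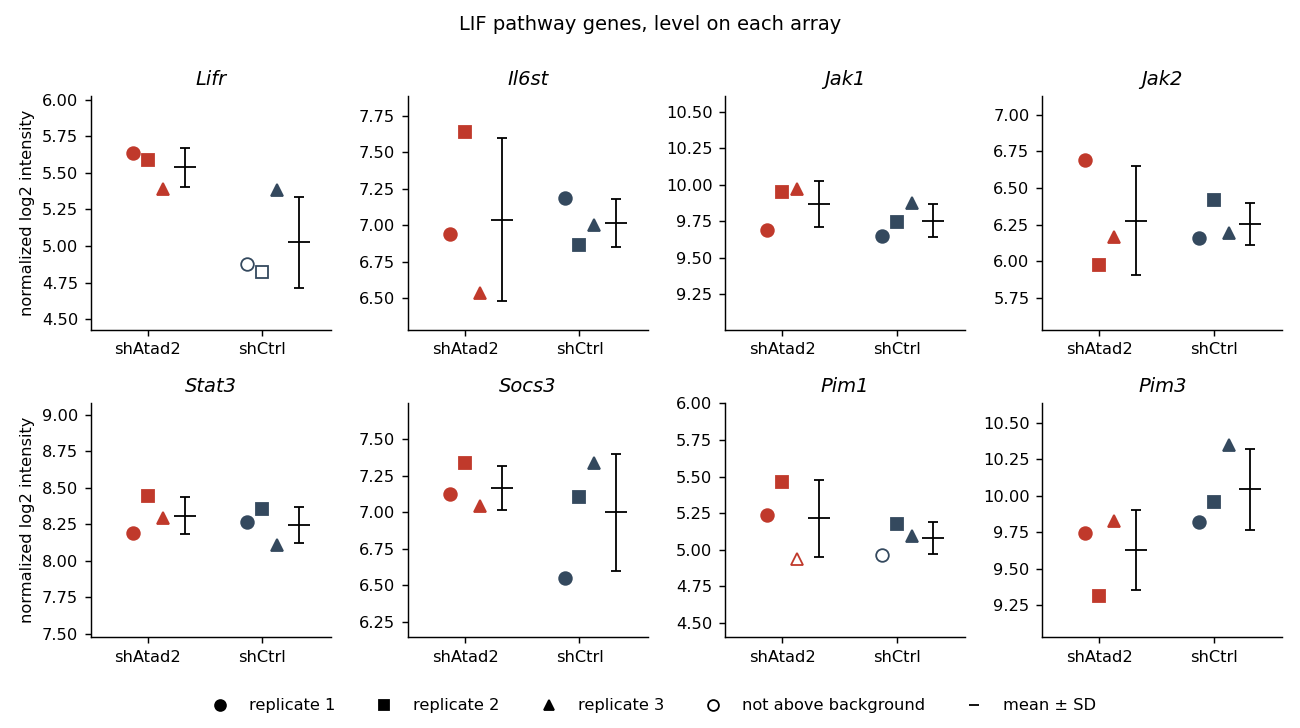
Normalized log2 intensity of the 8 measured genes on each array, by replicate number, with the group mean and SD beside the points and open symbols where the probe was not above background. Every panel spans the same number of log2 units. Lifr is the panel in which the 3 shAtad2 arrays lie above the 3 shCtrl arrays, and in the other panels the groups overlap.

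The kinases differed between the groups by less than their standard error. Jak1, the main kinase of gp130, read 9.69, 9.95 and 9.97 in shAtad2, against 9.65, 9.74 and 9.87 in shCtrl. Each shAtad2 array was above the shCtrl array of its number, by 0.04, 0.21 and 0.10, and the groups overlapped. The Jak1 change was 0.12 (SE 0.14, 95% interval -0.22 to 0.45, adjusted p = 0.928 by limma), and it lay between 0.063 (without shCtrl 1) and 0.21 (without shAtad2 1) with single arrays left out. Both other Jak1 probes were at background, with 1 and 0 arrays above it. Jak2 read 6.69, 5.97 and 6.16 in shAtad2, against 6.16, 6.42 and 6.19 in shCtrl. The pairs went both ways, at 0.53, -0.45 and -0.03. Its second measured probe gave nearly the same pair differences, 0.54, -0.46 and -0.08, at a lower level and with 2 shAtad2 and 3 shCtrl arrays above background. The Jak2 change was 0.02 (SE 0.20, 95% interval -0.45 to 0.49, adjusted p = 0.993 by limma). The remaining Jak2 probes were above background on 0 arrays.

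By its brightest probe Stat3, the transcription factor that the receptor activates, was the steadiest of the pathway genes beside Jak1. It read 8.19, 8.45 and 8.29 in shAtad2, against 8.26, 8.35 and 8.11 in shCtrl, a span of 0.34 over all 6 arrays. The mean was 8.31 ± 0.13 in shAtad2 and 8.24 ± 0.12 in shCtrl, and the difference was 0.07 (SE 0.14, 95% interval -0.26 to 0.39, adjusted p = 0.967 by limma). All 3 Stat3 probes were above background on all 6 arrays. The other Stat3 probes differed by 0.14 (SE 0.19) and 0.30 (SE 0.21), the same sign, the second of them by more than its SE. Both varied more over the 6 arrays than the brightest probe, from 7.36 to 8.05 and from 5.35 to 6.18. So the transcript of Stat3 was read well on every array, and by its brightest probe a change beyond 0.39 in either direction lies outside the 95% interval.

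Socs3 encodes the protein that blocks the Janus kinases at gp130 and is itself switched on by Stat3. It read 7.12, 7.33 and 7.04 in shAtad2, against 6.55, 7.10 and 7.34 in shCtrl, above background on every array. The lowest reading was that of shCtrl 1 and the highest that of shCtrl 3, so the shCtrl arrays enclosed the shAtad2 arrays. The pairs differed by 0.57, 0.23 and -0.30. The mean was 7.17 ± 0.15 in shAtad2 and 7.00 ± 0.40 in shCtrl, and the difference was 0.17 (SE 0.21, 95% interval -0.33 to 0.66, adjusted p = 0.934 by limma). Without replicate 3 of each group the Socs3 change was 0.40. The Socs3 transcript was thus measurable in both groups after 3 days without LIF. Arrays of cells with LIF were not analysed here, so whether its level differs from that with LIF is not given.

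The promoters of all 9 genes, 250 bases before to 50 after each RefSeq start on GRCm38.p6, were searched for the spaced palindrome TTCNNNGAA that STAT factors bind and for the stricter form TTCCNGGAA, each of which reads alike on both strands. Genes with several starts were searched at each. The Socs3 promoter held 1 match to TTCNNNGAA and the other 8 genes held 0, against 9.55% of 27025 genes with a promoter in the table. The stricter form was in 0 of the 9 genes and in 1.35% of all. The Socs3 promoter, at chr11:117969317-117969616 on the minus strand, is shown because Socs3 is the feedback target whose level was read on all arrays. The match, in capitals, lies from 154 to 146 bases before the start, and is a match of letters only.

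Socs3: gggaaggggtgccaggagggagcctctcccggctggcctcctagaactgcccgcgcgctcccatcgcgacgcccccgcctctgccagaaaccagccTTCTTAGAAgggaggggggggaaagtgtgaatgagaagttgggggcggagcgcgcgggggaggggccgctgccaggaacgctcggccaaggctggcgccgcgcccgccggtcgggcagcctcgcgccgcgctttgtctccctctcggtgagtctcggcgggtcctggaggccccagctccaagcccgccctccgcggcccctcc

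Pim1 and Pim3 encode serine/threonine kinases that promote survival and growth and are targets of Stat3 in several cell types. Pim3 was the gene of the pathway that lay lower in shAtad2. It read 9.74, 9.32 and 9.82 in shAtad2, against 9.82, 9.96 and 10.35 in shCtrl. Each shAtad2 array was below the shCtrl array of its number, by -0.08, -0.64 and -0.53, although shAtad2 3 lay just above shCtrl 1 and the groups met there. The mean was 9.63 ± 0.27 in shAtad2 and 10.04 ± 0.27 in shCtrl, and the difference was -0.41 (SE 0.20, 95% interval -0.88 to 0.05). By limma the unadjusted p was 0.0717 and the adjusted p 0.686. With the replicate number as a block the unadjusted p was 0.0280 and the adjusted p 0.305. Without shAtad2 2 the Pim3 change was -0.26 and without shCtrl 3 it was also -0.26, both moves of over 1.5-fold. Pim1 was dim, and its 2 measured probes went opposite ways. The brighter read 5.24, 5.46 and 4.94 in shAtad2, against 4.96, 5.18 and 5.09 in shCtrl, a change of 0.14 (SE 0.17, adjusted p = 0.929 by limma), with 2 arrays of each group above background. The second Pim1 probe differed by -0.31 (SE 0.26), with 1 shAtad2 and 2 shCtrl arrays above background. No direction can be given for Pim1.

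Over the 8 measured genes, 7 changes were positive and 1 was negative, with a median of 0.09, against 5010 positive and 5062 negative changes and a median of -0.0012 over all genes. At an adjusted p under 0.05 by limma, 0 of the 8 passed, as did 0% of all 10072 genes. At an unadjusted p under 0.05 there was 1 of 8, Lifr, which passed the detection rule through its higher group, against 7.93% of all genes. With the replicate block 0 of 8 passed the adjusted threshold, against 0.0993% of all genes, and 2 of 8, Lifr and Pim3, had an unadjusted p under 0.05, against 13.5%. The groups did not overlap in 1 of 8, again Lifr, against 13.5% of all genes. With 8 genes, nothing is read from the distance between these counts and the shares over all genes. The 95% intervals of all 8 lay inside a log2 change of 1 in either direction, without and with the block. For the 6 genes above background on all arrays, a 2-fold change on this scale is therefore outside the interval of each. Offset and leftover background understate changes of dim probes, so the interval bounds the reading and not the transcript. This limit weighs most on Jak2, the dimmest of these genes, at an unnormalized intensity of 168 to 214. For Lifr and Pim1 background compresses the scale and the interval is no such bound.

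**Figure D3:**
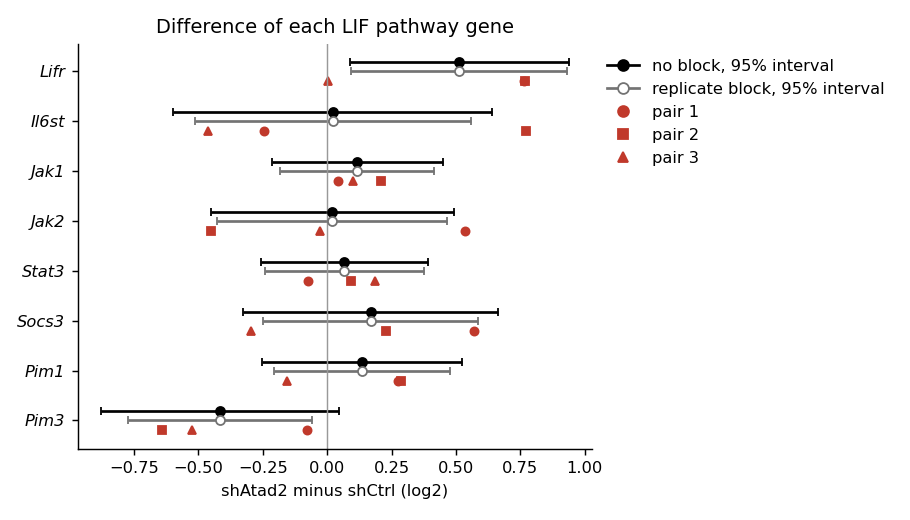
Change of each measured gene, shAtad2 minus shCtrl on the log2 scale, with its 95% interval without a block (black) and with the replicate block (grey) and the 3 pairs below (red). Without the block the Lifr interval (0.09 to 0.94) is the one that lies off 0, and with the block the Pim3 interval (-0.77 to -0.06) does too.

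Genes around the pathway were then read from lists compiled from general knowledge, with earlier results of these data known. Of 8 other JAK and STAT genes 6 were measured, 4 higher and 2 lower. The median was 0.17, and 0 passed the adjusted threshold in either direction. Stat5a, a STAT factor of many cytokine receptors, had the smallest p of them. It read 5.33, 5.26 and 5.51 in shAtad2, against 4.98, 5.12 and 5.05 in shCtrl, a change of 0.31 (SE 0.13, unadjusted p = 0.0478, adjusted p = 0.622 by limma). With the block the unadjusted p was 0.0511, and the change was 0.078 without background correction, 0.094 in the authors' processed values and 0.16 with an offset of 50. Its groups did not overlap. The Stat5a probe was dim, above background on 3 shAtad2 arrays and 2 shCtrl arrays. The shCtrl arrays alone would not have met the detection rule, so its p and its separation are descriptions. Of 14 inhibitors of the pathway 13 were measured, 8 higher and 5 lower. Their median was 0.03, and 0 were past the adjusted threshold. Among them the tyrosine phosphatase gene Ptpn1 had the smallest p without the block and Ptpn6 the smallest with it. Ptpn1 averaged 7.58 ± 0.08 in shAtad2 and 7.31 ± 0.18 in shCtrl (adjusted p = 0.721 by limma). Ptpn6 averaged 8.64 ± 0.20 in shAtad2 and 8.96 ± 0.29 in shCtrl (adjusted p = 0.767 by limma, and 0.399 with the block).

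The LIF receptor also feeds the ERK and phosphoinositide 3-kinase branches. Of 12 genes on that list 7 were measured, 2 higher and 5 lower. Their median was -0.15, and 0 were past the adjusted threshold. Map2k1, which encodes the ERK kinase Mek1, had the largest difference. It read 6.21, 5.87 and 6.08 in shAtad2, against 6.27, 6.92 and 7.08 in shCtrl, so that the groups did not overlap but the first pair lay close. The pairs differed by -0.05, -1.05 and -0.996. The Map2k1 change was -0.70 (SE 0.23, unadjusted p = 0.0148, adjusted p = 0.499 by limma, and 0.211 with the block). It was -0.29 without background correction and -0.31 in the authors' processed values, and without replicate 3 of each group the unadjusted p was 0.0661. Ptpn11, the phosphatase Shp2 that couples gp130 to ERK, differed by 0.06 (SE 0.12), and Gab1, its docking partner, by -0.07 (SE 0.14).

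Genes that LIF and Stat3 sustain or induce in ES cells were more often lower than higher in shAtad2, and 0 of them passed the adjusted threshold without or with the block. Of 19 listed 18 were measured, 4 higher and 14 lower, with a median change of -0.20, against 5062 of 10072 genes lower and a median of -0.0012 over all genes. The median was -0.08, -0.15 and -0.34 in the 3 pairs. The list was compiled with earlier results of these data known, and several of its genes fell together on the third replicates. Nothing is therefore read from the count of lower genes. Tbx3, a T-box factor of the naive state, had the smallest p of the list. It read 7.71, 7.80 and 5.83 in shAtad2, against 8.52, 8.48 and 7.36 in shCtrl. Every shAtad2 array was below its pair, by -0.81, -0.68 and -1.54, and the third replicates were the lowest of both groups. The Tbx3 change was -1.01 (SE 0.55, adjusted p = 0.736 by limma), and the adjusted p was 0.106 with the replicate block (SE 0.19). Without shAtad2 3 alone, with the low shCtrl 3 still included, the change was -0.36. Without replicate 3 of each group the Tbx3 change was -0.74 (adjusted p = 0.110 by limma). Klf4, Tfcp2l1, Gbx2 and Esrrb, other naive pluripotency factors on the list, differed by -0.18, -0.33, -0.30 and -0.27 (SE 0.47 to 0.55). Klf4, Tfcp2l1 and Gbx2 were each lower in all 3 pairs, and Esrrb was not. Markers of cell state are given beside these values without a test. The change was negative for all 8 primitive streak and mesoderm markers, with a mean level of 5.85 to 8.07 in shAtad2 and 6.73 to 9.0 in shCtrl. It was positive for all 5 measured primed epiblast markers, at 10.86 to 11.40 in shAtad2 and 10.29 to 11.10 in shCtrl. The array ranges of the groups overlapped in both lists, but the same-numbered arrays differed in a common direction. The streak and mesoderm mean was lower in each shAtad2 array, at 8.07, 8.05 and 5.85 against 8.997, 8.93 and 6.73 in shCtrl. The primed epiblast mean was higher in each shAtad2 array, at 10.92, 10.86 and 11.40 against 10.29, 10.40 and 11.10 in shCtrl. Of 10 pluripotency markers 2 changes were positive and 8 negative, of 3 measured neural progenitor markers 2 and 1, and of 2 measured endoderm markers 1 and 1. The part of these markers in the values of the pathway and its targets was not tested.

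**Figure D4:**
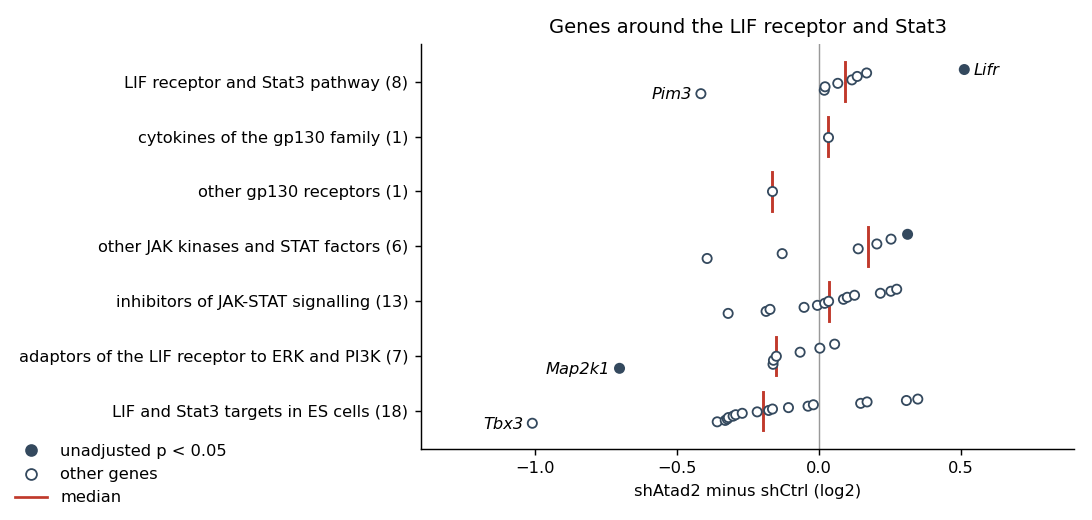
Change of every measured gene around the LIF receptor and Stat3, shAtad2 minus shCtrl on the log2 scale, by list, with the number of measured genes in brackets and the list median as a red line. Filled points have an unadjusted p under 0.05, among them Lifr and Map2k1. The target genes have the lowest median among the lists with several genes, at -0.20, next to -0.15 for the ERK and PI3K list. Nothing is read from this order, as the lists were compiled with earlier results of these data known.

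The third replicates were also set against the other arrays of their group, gene by gene. On the third replicates 5 target genes, Klf4, Tfcp2l1, Gbx2, Tbx3 and Esrrb, were over 1 log2 unit lower than on the other arrays in both groups. Esrrb, a nuclear receptor of naive ES cells, read 10.78, 10.61 and 8.84 in shAtad2, against 10.54, 10.84 and 9.65 in shCtrl. Ier3, an immediate early gene, went the other way, reading 9.65 on shAtad2 3 and 10.15 on shCtrl 3, against 6.82 to 7.47 on the other arrays. Of the 8 pathway genes 0 moved by over 1 in both groups, with differences running from -0.75 for Il6st in shAtad2 to 0.54 for Lifr in shCtrl. Socs3 was 0.19 lower on shAtad2 3 and 0.51 higher on shCtrl 3 than on the other arrays of its group. Of the 18 measured target genes 14 moved in the same direction in both groups, Klf4, Tbx3 and Esrrb among them. The target gene Cebpb moved as Socs3 did, by -0.32 in shAtad2 and 0.48 in shCtrl. With 1 such array a group these are values without a test. The first principal component, on which the third replicates lay apart, held 48.0% of the variance over all measured genes. How many of all genes moved by over 1 in both groups was not counted. The counts above therefore mark no trait of the target genes or of the pathway genes.

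**Figure D5:**
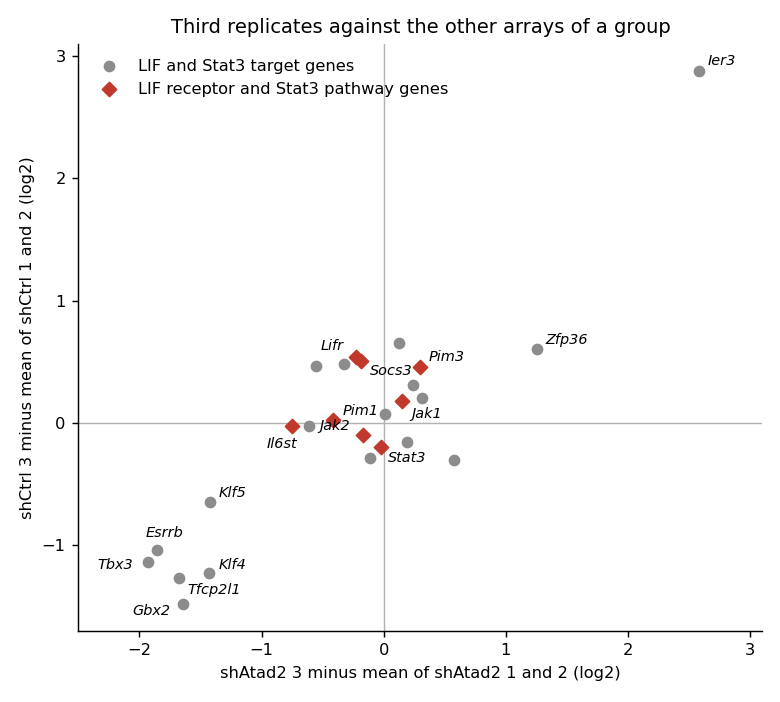
Level on the third replicate minus the mean of the other replicates, in shAtad2 (horizontal axis) and in shCtrl (vertical axis), log2, for the 8 measured pathway genes (red diamonds) and the 18 measured target genes (grey circles). Pathway genes lie between -0.75 and 0.54 on both axes, while Klf4, Tfcp2l1, Gbx2, Tbx3 and Esrrb lie below -1 on both and Ier3 above 2 on both. The share of all genes that lie as far out was not counted.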

How the data were processed

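Total RNA was hybridized to Illumina MouseWG-6 v2.0 beadchips. Deposited were the intensity of each probe before normalization, its detection p-value on each array, and a second table of processed intensity whose 6 columns share nearly 1 distribution (median 141.1). The scanner software, and the normalization of the second table by the authors, are not stated in the sources read. The neqc function of limma 3.58.1 (R 4.3.3) corrected background by normexp from the detection p-values, added an offset of 16, made quantiles equal and took log2. Probes needed a detection p under 0.05 on at least 3 of 6 arrays (18085 probes), and the brightest kept probe stood for each of 10072 genes. The offset and leftover background understate changes of dim probes, and the number of arrays limits the precision.

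The comparison, without a block, used lmFit and eBayes of limma, with two-sided p-values adjusted by Benjamini and Hochberg's method over all genes. Deviations of same-numbered arrays from their group means correlated at 0.30, 0.29 and 0.58, above the 0.1 set for pairing, although replicates 1 and 2 correlated as closely when crossed (0.30 and 0.34), so a second fit took replicate number as a block and is given where it matters. Alternatives covered background, offset, normalization, processed values, filter, probe choice, variance model, block and arrays left out. The fit was run on simulated data with independent noise and no shared shift of the third replicates. That run checks the working of the fit and does not bear on the limits of these arrays.

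The genes and lists were chosen with earlier results of these data known. Named genes were all 9, Atad2, in each list the genes with the smallest p without and with the block, and the 5 genes closest to the member of widest range. Others (Ptpn11, Gab1, Klf4, Tfcp2l1, Gbx2, Esrrb, Ier3, Cebpb) were named after their values were seen. Promoters come from RefSeq and were scanned in Python 3.11.15, and 9 of 9 genes matched.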

Additional observations from a re-analysis of the deposited data

How the results depend on the processing

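Under all 17 alternatives 0 of the LIF pathway genes passed the adjusted threshold, and the changes of Jak1 and Pim3 kept their sign in all 17 and that of Lifr in all 16 that could give it. The number of all genes past the threshold was 0, and 1 without background correction, with an offset of 50, with the authors' processed values or with a variance trend. It was 10 with the replicate block, 3 without replicate 3 of each group, and 13 with the block and without them. Small changes turned sign with single arrays left out. Those fits gave -0.28 to 0.27 for Il6st, -0.19 to 0.17 for Jak2, -0.00099 to 0.13 for Stat3, -0.054 to 0.34 for Socs3 and -0.040 to 0.13 for Ctf1. Pim1 turned to -0.087 with the mean over its probes, Ctf1 to -0.030 and Osmr to 0.12 without replicate 3 of each group, block or not. The second measured Jak2 probe, at -0.0014 as reported, read 0.0014, 0.0030 and 0.00048 without background correction, with the larger offset and with the processed values, 0.039 without replicate 3 of each group, and -0.23 to 0.19 with single arrays left out, and the second Stat3 probe -0.0044 to 0.26. The cause of these turns was not tested. The replicate block changed no call of a pathway gene at the adjusted threshold. Signal limits Lif, Lifr and Pim1, which lie at or near background.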
